A study of Mus musculus with 20 samples.

Results

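The genes described here are 36 enzymes and receptors of the eicosanoid pathway, chosen by name from the gene names of the array, and all 36 were measured in visceral adipose tissue. They stand on 61 of the 56605 probes of the array. Of these, 54 probes were bright enough to be tested, and they include at least 1 probe of each of the 36 genes, among 25619 gene names tested in all. The arrays, 1 per mouse, were of epididymal fat of 20 male F3 C57bl/6J mice, bred for 3 generations on a growing diet with an added oil. In the control lineage the oil was a high-oleic sunflower oil, and in the omega 3 lineage it was a fish oil rich in eicosapentaenoic acid (EPA). The Ref group (n = 6) came from the control lineage and was fed a low-fat diet, the HFoleic group (n = 6) came from the same lineage and was fed a high-fat, high-sucrose diet, and the HFepa group (n = 8) came from the omega 3 lineage and was fed that same high-fat diet. HFoleic vs. Ref is therefore a comparison of diets within a lineage, HFepa vs. HFoleic a comparison of lineages on a diet, and HFepa vs. Ref a comparison in which both differ. No group of the omega 3 lineage on the low-fat diet was among these arrays, and the exposure of the F3 mice themselves to EPA cannot be told apart from that of their parents.

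Eicosanoids are signalling lipids made from arachidonic acid and related polyunsaturated fatty acids, EPA among them. A phospholipase A2 releases the fatty acid from membranes. Cyclooxygenases then turn it into prostaglandin H2, from which separate synthases make the prostaglandins, prostacyclin and thromboxane, whereas 5-lipoxygenase with its activating protein makes leukotriene A4, from which leukotriene B4 and the cysteinyl leukotrienes derive. The products act on receptors of the cell surface, and in fat they are known for restraining lipolysis, for steering the formation of adipocytes and for drawing in leukocytes.

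Stretches of DNA just before the start sites are shown for 3 genes on which the results turn: Tbxas1, which rose most in HFoleic vs. Ref, Hpgds, another synthase that rose, and Hpgd, which fell most among the genes called. Each is the 250 bases upstream of the RefSeq start site, 5′ to 3′ on the strand of the gene, on assembly GRCm38.p6. Capitals mark the letters GAGGAAG or their reverse complement CTTCCTC, a core that factors of the ETS family such as PU.1 of myeloid cells can bind. The positions are chr6:38918736-38918985 (plus strand) for Tbxas1, chr6:65144731-65144980 (minus strand) for Hpgds and chr8:56294302-56294551 (plus strand) for Hpgd.
Tbxas1: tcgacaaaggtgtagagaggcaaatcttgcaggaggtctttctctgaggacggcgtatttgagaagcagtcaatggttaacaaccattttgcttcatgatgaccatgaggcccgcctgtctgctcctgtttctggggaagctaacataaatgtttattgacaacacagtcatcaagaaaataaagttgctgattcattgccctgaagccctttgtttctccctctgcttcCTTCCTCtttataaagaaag
Hpgds: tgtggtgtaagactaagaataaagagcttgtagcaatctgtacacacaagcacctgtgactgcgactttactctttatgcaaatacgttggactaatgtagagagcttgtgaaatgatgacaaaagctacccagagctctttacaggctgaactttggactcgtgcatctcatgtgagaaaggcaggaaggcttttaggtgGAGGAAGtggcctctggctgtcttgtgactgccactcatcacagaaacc
Hpgd: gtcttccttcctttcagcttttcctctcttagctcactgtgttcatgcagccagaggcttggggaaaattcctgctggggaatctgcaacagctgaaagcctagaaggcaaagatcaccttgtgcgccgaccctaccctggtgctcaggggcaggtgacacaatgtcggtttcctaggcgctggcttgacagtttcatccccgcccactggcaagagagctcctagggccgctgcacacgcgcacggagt
Of the 36 genes, 30 had a start site in the RefSeq table used, and Alox15, Alox5ap, Cysltr1, Ltb4r2, Ptger1 and Ptgis had none there. GAGGAAG was found on either strand in 5 of the 9 matched members that rose in HFoleic vs. Ref (Cyp4f18, Hpgds, Ltb4r1, Ptgir and Tbxas1), in 0 of the 3 that fell, and in 3 of the 18 that were not called (Pla2g5, Ptgfr and Ptgs1). Among the windows of the same length of all genes in that table it was in 10.6% of 32851 windows and 12% of 27025 genes. In Tbxas1 its first base lay 20 bases before the start site, and in Hpgds 49 bases before it. The other letters searched were TGAGTCA, found in 4.46% of all windows and in Ptgds only, AGGTCA, found in 14.0% and in Pla2g4a, Ggt1, Pla2g5, Ptgfr and Tbxa2r, and TATAAA, found in 12.4% and in Pla2g4a, Tbxas1 and Ggt1. None of the 4 contains another, and they were kept after matches had been looked at, so these counts are descriptions of letters in a window and not of binding.

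The arrays differed little in signal as a whole. The median signal of an array was between 83 and 114 in arbitrary units, 66.1% to 71.9% of its spots were well above background, and no spot was saturated. Adipocyte markers (Adipoq, Plin1, Lep, Cidec, Fabp4, Pparg and Lipe, all 7 tested) had a mean log2 intensity of 15.19 to 15.55 in every mouse. A list of testis markers (4 of 5 tested) was at 8.27 and 8.41 in Ref mice 3 and 6, at 9.06 in HFoleic mouse 5 and at 8.10 in HFepa mouse 4, and at 6.60 or less in the others. An epididymis list (2 of 6 tested) was at 8.11 and 7.10 in the same Ref mice, at 8.36 in HFepa mouse 2 and at 6.42 or less in the others. The calls without these 5 arrays are given beside the main counts. A liver list (all 5 tested) ran from 7.56 in Ref mouse 4 to 12.48 in HFoleic mouse 6. A smooth muscle list (all 4 tested) ran from 10.99 in HFepa mouse 6 to 13.56 in HFepa mouse 2. No set of arrays was left out for the liver and smooth muscle lists. In bulk tissue, fewer cells of a type and less RNA per cell cannot be told apart.

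All values are log2 of the median spot intensity after quantile normalization, so that a difference of 1 is a doubling of signal, and levels are compared between mice and never between genes. A gene is read from its brightest tested probe. It was called when its p from limma, corrected for all tested probes together after Benjamini and Hochberg, was under 0.05 (the adjusted p below). In HFoleic vs. Ref, 14 of the 36 genes were called, 11 of them higher and 3 lower in the HFoleic group. The share called among all 25619 genes was 31.8%, 15.2% higher and 16.7% lower, against which 11 higher and 3 lower of 36 can be read. The 36 were chosen with earlier results of these data known, so these counts are a description and no test of the list. The median log2 fold change was -0.05 over the 36 genes and -0.04 over all genes. The called genes were found in 5 of the 6 branches: Pla2g4a in the release of fatty acids, Alox5ap, Cyp4f18, Ltc4s and Lta4h among leukotriene enzymes, Ltb4r1, Cysltr1 and Cysltr2 among leukotriene receptors, Tbxas1, Hpgds, Hpgd and Cbr1 among prostaglandin and thromboxane enzymes, and Ptger3 and Ptgir among prostanoid receptors. None of the 3 other lipoxygenases was called. Tbxas1, Alox5ap, Hpgds, Cysltr1 and Hpgd were called under all 14 alternative settings and in all 20 fits that left out 1 array. Without the 5 arrays with high testis or epididymis lists 6 genes were called, where the share among all genes was 17.2%. These were the same 5 and Pla2g5, and the other 9 kept their sign, with an adjusted p between 0.054 (Ltb4r1) and 0.286 (Ptger3).

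In HFepa vs. Ref no gene was called, where the share among all genes was 2.46%. At an unadjusted p under 0.05 limma gave 7 genes, 5 higher and 2 lower in the HFepa group. At that threshold it gave 5520 of all 25619 genes, 2569 higher and 2951 lower, so the 7 are not particular to this list. In HFepa vs. HFoleic no gene was called either, and the share among all genes was 0%. There limma gave 9 genes with an unadjusted p under 0.05, of which 1 was higher and 8 were lower in HFepa mice. Among all 25619 genes limma gave 5331 at that threshold in this comparison, 2766 higher and 2565 lower. Both high-fat groups are set against the same Ref arrays, so the comparisons are not independent, and each is given with its own values.

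**Figure D1:**
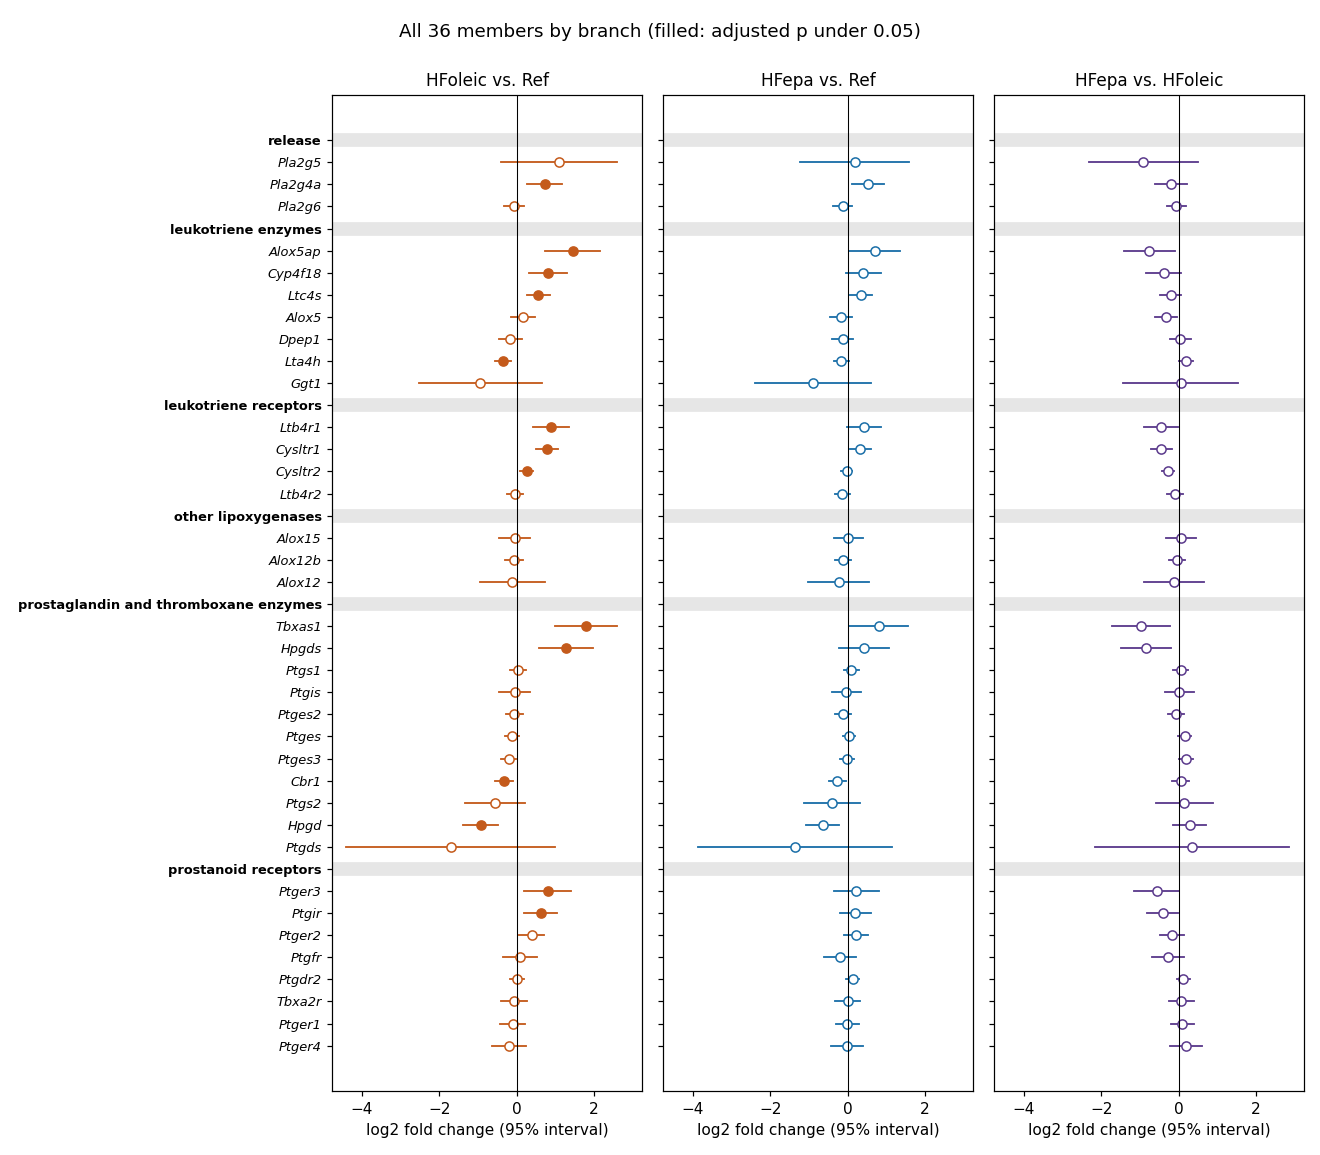
Log2 fold changes of all 36 genes in the 3 comparisons, on a shared scale. Circles are estimates of the limma model, lines are 95% confidence intervals, and filled circles are genes with an adjusted p under 0.05. Filled circles stand in HFoleic vs. Ref only, 11 to the right of 0 and 3 to the left. The widest interval is that of Ptgds, from -4.40 to 0.98 in HFoleic vs. Ref.

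Fatty acid release was represented by 3 phospholipases, of which 1 was called. Pla2g4a, the cytosolic enzyme that prefers arachidonic acid, was at 8.24, 8.63 and 8.96 in the Ref group (lowest, median and highest mouse), at 8.59, 9.47 and 9.58 in the HFoleic group and at 8.49, 9.09 and 9.88 in the HFepa group. Only HFoleic mouse 1 lay within the range of the Ref mice. The fold change of HFoleic vs. Ref was 1.65 (log2 0.72, 95% interval 0.27 to 1.17, adjusted p = 0.016), and that of HFepa vs. Ref was 1.44 (log2 0.52, interval 0.10 to 0.95, adjusted p = 0.149). For a second Pla2g4a probe the log2 value in HFoleic vs. Ref was 0.07, and it was not called (adjusted p = 0.505). That probe was dim, with group means of 5.64 to 5.76, where the lowest signal well above background was at 5.23 to 5.46 on the arrays. It is therefore limited by signal. Pla2g5, a secreted phospholipase, varied within every group. It was between 5.37 and 9.34 in the Ref group, between 5.60 and 9.26 in the HFoleic group and between 5.68 and 8.88 in the HFepa group. The estimate for HFoleic vs. Ref was 1.09 with an interval from -0.42 to 2.61 (adjusted p = 0.27). Without the 5 arrays with high testis or epididymis lists it was 1.90, which was called (adjusted p = 0.0274). Pla2g6, the calcium-independent enzyme, had values between -0.12 and -0.06 in the 3 comparisons and was not called in any.

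Of 7 leukotriene enzymes, 3 rose and 1 fell in HFoleic vs. Ref. Alox5ap rose most. It encodes the protein that hands arachidonic acid to 5-lipoxygenase, and its probe lies on chromosome 5, 150099347 to 150099406 (mm9). The lowest, median and highest mice were at 10.92, 11.52 and 11.72 in the Ref group, at 12.03, 13.04 and 13.43 in the HFoleic group and at 11.31, 11.81 and 13.54 in the HFepa group. Every HFoleic mouse was above every Ref mouse, while 5 of the 8 HFepa mice were above the highest Ref mouse. The fold change of HFoleic vs. Ref was 2.73 (log2 1.45, interval 0.74 to 2.16, adjusted p = 0.00358), that of HFepa vs. Ref was 1.62 (log2 0.69, interval 0.03 to 1.36, adjusted p = 0.22), and HFepa vs. HFoleic gave a log2 value of -0.76 (interval -1.42 to -0.09, adjusted p = 0.191). A second probe gave 1.42, 0.71 and -0.71. Alox5, the lipoxygenase that this protein serves, was not called, with 0.16 (interval -0.14 to 0.47) in HFoleic vs. Ref, -0.17 (interval -0.46 to 0.12) in HFepa vs. Ref and -0.33 (interval -0.62 to -0.04, adjusted p = 0.185) in HFepa vs. HFoleic.

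Beyond leukotriene A4, the enzymes of the branch moved in both directions. Ltc4s, which conjugates it with glutathione to form leukotriene C4, was at 13.58, 13.70 and 13.85 in the Ref group, at 13.77, 14.35 and 14.55 in the HFoleic group and at 13.73, 13.95 and 14.44 in the HFepa group. HFoleic mouse 1 alone overlapped the Ref mice, and 5 of the 8 HFepa mice were above them. The log2 fold change was 0.55 in HFoleic vs. Ref (interval 0.26 to 0.85, adjusted p = 0.00589) and 0.35 in HFepa vs. Ref (interval 0.07 to 0.62, adjusted p = 0.145). Lta4h, the hydrolase that makes leukotriene B4, was lower in the HFoleic group, with 12.78, 12.95 and 13.06 against 13.03, 13.31 and 13.51 in the Ref group and 12.90, 13.09 and 13.54 in the HFepa group. The Ref and HFoleic ranges overlapped by Ref mouse 7 and HFoleic mouse 1. The log2 fold change was -0.35 (interval -0.55 to -0.15, adjusted p = 0.0101) in HFoleic vs. Ref and -0.16 (adjusted p = 0.325) in HFepa vs. Ref. A dimmer probe that the files list under Lta4h showed larger differences, with -0.86 in HFoleic vs. Ref (adjusted p = 0.000138), where no mice overlapped, and -0.43 in HFepa vs. Ref (adjusted p = 0.0298). It was the only member probe called in HFepa vs. Ref, where 2.26% of all probes were called. Its value in HFepa vs. HFoleic was 0.43 (interval 0.23 to 0.64, adjusted p = 0.117).

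Cyp4f18, a cytochrome that hydroxylates leukotriene B4 and so ends its action, was at 10.13, 10.33 and 10.73 in the Ref group, at 10.62, 11.25 and 11.54 in the HFoleic group and at 10.27, 10.65 and 11.78 in the HFepa group. HFoleic mouse 1 was the only one below the highest Ref mouse. The fold change of HFoleic vs. Ref was 1.74 (log2 0.80, adjusted p = 0.0142), and the other 2 probes, both called, gave log2 0.76 and 1.03. In HFepa vs. Ref it was log2 0.41 (adjusted p = 0.303). Ggt1 and Dpep1, which trim leukotriene C4 to leukotrienes D4 and E4, were not called in any comparison. Dpep1 lay between -0.17 and 0.04, and Ggt1 had an estimate of -0.94 in HFoleic vs. Ref with an interval from -2.54 to 0.66.

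Of 4 leukotriene receptors, 3 rose in HFoleic vs. Ref and none was called in HFepa vs. Ref. Cysltr1, the receptor of cysteinyl leukotrienes with the highest affinity for leukotriene D4, had the smallest p of the 36 genes in HFoleic vs. Ref. Its probe is on chromosome X, 103773217 to 103773276 (mm9). It was at 7.56, 8.08 and 8.37 in the Ref group, at 8.56, 8.80 and 9.16 in the HFoleic group and at 8.15, 8.24 and 8.88 in the HFepa group. All HFoleic mice were above all Ref mice, and 6 of the 8 HFepa mice lay inside the Ref range. The fold change of HFoleic vs. Ref was 1.72 (log2 0.78, interval 0.50 to 1.07, adjusted p = 0.000683), and the log2 value was 0.33 in HFepa vs. Ref (interval 0.06 to 0.60, adjusted p = 0.153) and -0.45 in HFepa vs. HFoleic (interval -0.72 to -0.18, adjusted p = 0.12). Ltb4r1, the high-affinity receptor of leukotriene B4 on leukocytes, was at 7.61, 7.94 and 8.70 in the Ref group, at 8.54, 8.90 and 9.18 in the HFoleic group and at 7.76, 8.47 and 9.19 in the HFepa group. Ref mouse 7 reached into the HFoleic range. The fold change was 1.84 in HFoleic vs. Ref (log2 0.88, adjusted p = 0.0061) and 1.35 in HFepa vs. Ref (log2 0.43, adjusted p = 0.249).

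The remaining leukotriene receptors were dim. Cysltr2, another receptor of cysteinyl leukotrienes, was well above background in 1 of 6 Ref, 6 of 6 HFoleic and 4 of 8 HFepa mice. It was at 5.38, 5.54 and 5.65 in the Ref group, at 5.68, 5.77 and 5.89 in the HFoleic group and at 5.26, 5.46 and 5.75 in the HFepa group. HFoleic and Ref mice did not overlap, by a margin that is small beside the range of any group. The log2 fold change was 0.26 (interval 0.09 to 0.42, adjusted p = 0.0183), and the call was lost after median centring (0.10, adjusted p = 0.429) and on the processed signal (0.67, adjusted p = 0.0953). Ltb4r2, the receptor with low affinity for leukotriene B4, was not called, with -0.05 in HFoleic vs. Ref (interval -0.26 to 0.17). Over the 36 genes, HFoleic and Ref mice did not overlap for 5 genes that were higher (Tbxas1, Alox5ap, Hpgds, Cysltr1 and Cysltr2) and 1 that was lower (Hpgd), where the share among all genes was 6.92% and 7.08%. No member separated HFepa from Ref mice, where the share among all genes was 1.04%, or HFepa from HFoleic mice, where it was 0.355%.

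**Figure D2:**
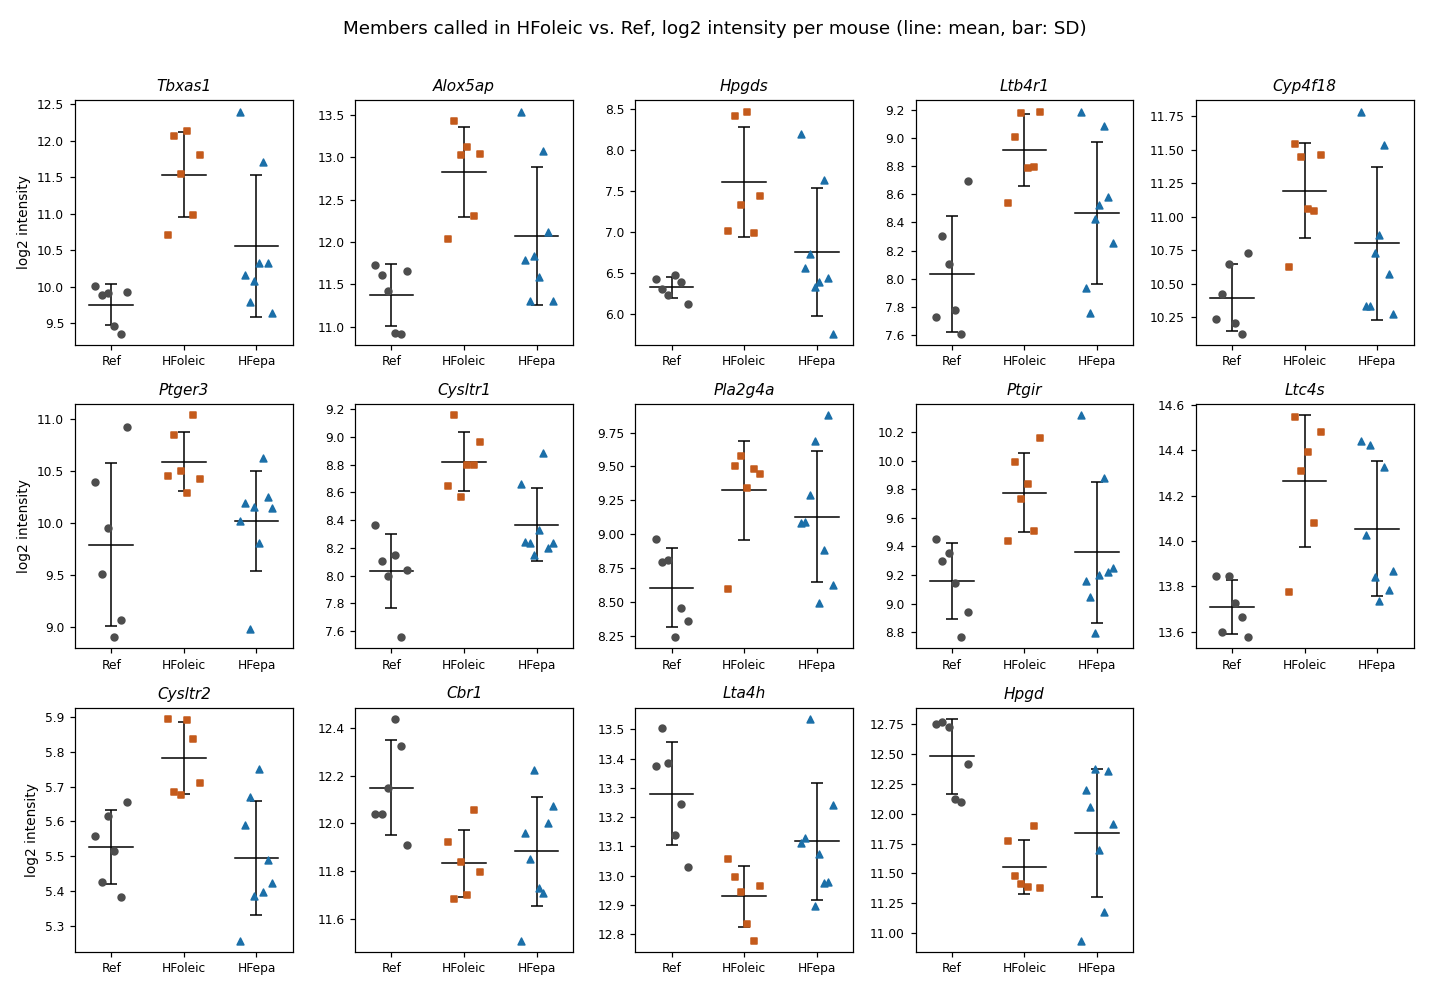
Log2 intensity in every mouse of the 14 genes called in HFoleic vs. Ref, with a horizontal line at the group mean and a bar of 1 SD on either side, each panel on its own axis. Ref (circles, n = 6), HFoleic (squares, n = 6) and HFepa (triangles, n = 8) stand side by side. In Tbxas1, Alox5ap and Hpgds 2 of the 8 HFepa mice, mice 1 and 6, stand far above the other triangles.

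The prostaglandin and thromboxane enzymes held the largest called changes in both directions. Tbxas1, thromboxane A synthase, rose most of the 36 genes, and its probe is on chromosome 6, 39034356 to 39034415 (mm9). The lowest, median and highest mice were at 9.36, 9.89 and 10.002 in the Ref group, at 10.70, 11.67 and 12.13 in the HFoleic group and at 9.63, 10.24 and 12.40 in the HFepa group. All HFoleic mice lay above all Ref mice. Among HFepa mice, mice 1 and 6 were at 12.40 and 11.71 and the others at 10.33 or less. The fold change of HFoleic vs. Ref was 3.44 (log2 1.78, interval 0.98 to 2.59, adjusted p = 0.00219), that of HFepa vs. Ref was 1.74 (log2 0.80, interval 0.05 to 1.55, adjusted p = 0.213), and the log2 value of HFepa vs. HFoleic was -0.98 (interval -1.74 to -0.23, adjusted p = 0.149).

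Prostaglandin D2 has 2 synthases, and only the one of blood cells was called. Hpgds, the haematopoietic enzyme known from mast cells, macrophages and some T cells, was at 6.13, 6.35 and 6.47 in the Ref group, at 6.99, 7.39 and 8.47 in the HFoleic group and at 5.77, 6.51 and 8.19 in the HFepa group. Its Ref mice lay close together and no HFoleic mouse overlapped them, while the HFepa mice ran from below the Ref range to HFepa mice 6 and 1 at 7.63 and 8.19. The fold change of HFoleic vs. Ref was 2.43 (log2 1.28, interval 0.58 to 1.98, adjusted p = 0.00684). The log2 value was 0.43 in HFepa vs. Ref (interval -0.22 to 1.08, adjusted p = 0.462) and -0.85 in HFepa vs. HFoleic (interval -1.50 to -0.20, adjusted p = 0.149), and another Hpgds probe gave 1.36, 0.59 and -0.77. Ptgds, the lipocalin-type synthase, had an estimate of -1.71 in HFoleic vs. Ref that was not called (adjusted p = 0.341). It was at 12.48 and 11.91 in Ref mice 6 and 3, 11.61 in HFoleic mouse 5, 11.19 in HFepa mouse 4 and 9.50 in HFepa mouse 7, and at 7.11 or less in the other 15 mice.

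Hpgd, the dehydrogenase that inactivates prostaglandin E2 and other prostaglandins, fell in the HFoleic group. Its probe is on chromosome 8, 58799399 to 58799458 (mm9). It was at 12.10, 12.57 and 12.77 in the Ref group, at 11.37, 11.44 and 11.90 in the HFoleic group and at 10.94, 11.99 and 12.37 in the HFepa group. No HFoleic mouse reached the Ref range, whereas 3 of the 8 HFepa mice lay in it, and HFepa mice 1 and 6 were the lowest of all 20 mice. The log2 fold change was -0.93 in HFoleic vs. Ref (interval -1.38 to -0.48, adjusted p = 0.00353), a level of 0.525 of that in the Ref group. In HFepa vs. Ref it was -0.64 (interval -1.07 to -0.22, adjusted p = 0.0883) and in HFepa vs. HFoleic 0.29 (interval -0.14 to 0.71, adjusted p = 0.447). Cbr1, a carbonyl reductase that can turn prostaglandin E2 into F2α, was at 11.91, 12.09 and 12.44 in the Ref group, at 11.68, 11.82 and 12.05 in the HFoleic group and at 11.51, 11.90 and 12.22 in the HFepa group. Its ranges overlapped. The log2 fold change of HFoleic vs. Ref was -0.32 (adjusted p = 0.0361), and the gene stayed called in 13 of 20 fits with 1 array left out.

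The cyclooxygenases and the prostaglandin E2 and prostacyclin synthases were not called in any comparison. Ptgs1, the constitutive cyclooxygenase, differed little, with 0.04 in HFoleic vs. Ref (interval -0.17 to 0.24) and 0.09 in HFepa vs. Ref (interval -0.11 to 0.28). Ptgs2, the inducible cyclooxygenase, was at 5.24, 6.35 and 7.69 in the Ref group, at 5.41, 5.65 and 6.87 in the HFoleic group and at 5.22, 5.91 and 7.51 in the HFepa group. Its groups overlapped widely, and the estimate of -0.55 in HFoleic vs. Ref had an interval from -1.33 to 0.22. The log2 fold changes of HFoleic vs. Ref were -0.12 for Ptges, -0.06 for Ptges2 and -0.20 for Ptges3, all of which make prostaglandin E2, and -0.05 for Ptgis, prostacyclin synthase. For Ptges3 the unadjusted p was 0.0408 and the adjusted p 0.104.

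Of 8 prostanoid receptors, 2 rose in HFoleic vs. Ref. Ptger3 encodes the EP3 receptor of prostaglandin E2, through which lipolysis is restrained in adipocytes. It was at 8.91, 9.74 and 10.93 in the Ref group, at 10.29, 10.48 and 11.04 in the HFoleic group and at 8.98, 10.15 and 10.62 in the HFepa group. Ref mice 2 and 7 lay within the HFoleic range. The fold change was 1.74 (log2 0.80, interval 0.18 to 1.41, adjusted p = 0.0455) in HFoleic vs. Ref, and the gene stayed called in only 5 of 20 fits with 1 array left out. Of its 3 dimmer probes 1 was called, with 0.80 (adjusted p = 0.0169), and another, near background with group means of 5.62 to 5.67, gave 0.04. The remaining probe was not well above background in any Ref mouse and was not called (adjusted p = 0.0955). Its estimate in the HFoleic group was at least 1.13-fold the Ref level, a bound that leaves out the spread between mice. For it the Ref level was taken as the lowest signal well above background on each array where it was under it. For the brightest probe the value in HFepa vs. Ref was 0.23 (adjusted p = 0.689). Ptgir, the prostacyclin receptor, was at 8.77, 9.22 and 9.45 in the Ref group, at 9.44, 9.78 and 10.16 in the HFoleic group and at 8.79, 9.21 and 10.32 in the HFepa group. Only HFoleic mouse 1 lay below the highest Ref mouse. The fold change was 1.53 in HFoleic vs. Ref (log2 0.62, adjusted p = 0.0274), and log2 0.20 in HFepa vs. Ref (adjusted p = 0.597). The call in HFoleic vs. Ref stayed in 15 of 20 fits with 1 array left out, and was lost without HFoleic mouse 4, 6 or 8 or Ref mouse 6 or 7, with an adjusted p of 0.0506 to 0.068.

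The other prostanoid receptors did not pass the test. Ptger2, the EP2 receptor of prostaglandin E2, had 0.39 in HFoleic vs. Ref (interval 0.05 to 0.72, adjusted p = 0.071). Ptger4, its EP4 receptor, had -0.20 (interval -0.64 to 0.24) and Ptger1, its EP1 receptor, -0.10 (interval -0.43 to 0.22). Ptgfr, the receptor of prostaglandin F2α, had 0.08 (interval -0.36 to 0.52) and Tbxa2r, the thromboxane receptor, -0.07 (interval -0.41 to 0.27). Ptgdr2, a receptor of prostaglandin D2 on eosinophils and some T cells, was well above background in 1 of 6 Ref, 0 of 6 HFoleic and 5 of 8 HFepa mice. Its estimate in the HFepa group was at least 1.08-fold the HFoleic level, a bound from the dimmest probes that were well above background. That bound leaves out the spread between mice, and the gene was not called (interval of the log2 fold change -0.05 to 0.29, adjusted p = 0.422).

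Among the 3 other lipoxygenases, none was called in any comparison. Alox15, whose product starts many of the lipid mediators that end inflammation, was dim, well above background in 2 of 6 Ref, 2 of 6 HFoleic and 3 of 8 HFepa mice. Its values were -0.05 in HFoleic vs. Ref (interval -0.45 to 0.35) and 0.01 in HFepa vs. Ref (interval -0.37 to 0.39). Alox12b, a lipoxygenase of the skin barrier, had -0.07 and -0.12. Alox12, the platelet-type enzyme, was at 6.87, 7.43 and 9.19 in the Ref group, at 7.17, 7.51 and 9.11 in the HFoleic group and at 6.84, 7.45 and 8.80 in the HFepa group, and the highest mice decided the spread.

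Alox12, Ptgds, Ggt1 and Pla2g5 shared those mice. Each of the 4 genes was highest in Ref mouse 6, and its 4 highest mice of all 20 were Ref mice 3 and 6, HFoleic mouse 5 and HFepa mouse 4. In Ggt1 these were at 8.01, 9.34, 8.40 and 8.55, with the next mouse at 6.78. In Pla2g5 they were at 8.44, 9.34, 9.26 and 8.88, with the next mouse at 8.09. These are the mice in which the testis list was at 8.10 or more. The part of testis RNA in the values of these genes was not tested.

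**Figure D3:**
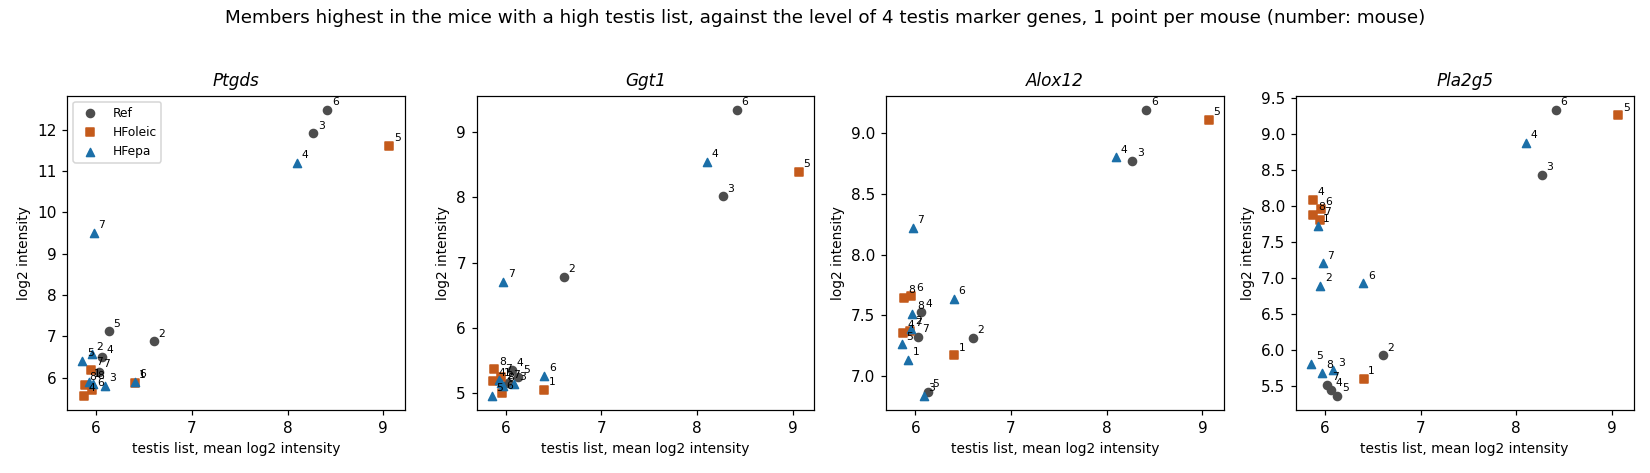
Log2 intensity of Ptgds, Ggt1, Alox12 and Pla2g5 in each mouse against the mean log2 intensity of 4 testis marker genes, with the mouse number beside each point. Ref mice 3 and 6, HFoleic mouse 5 and HFepa mouse 4 hold the 4 highest values on both axes in each panel, in Pla2g5 with a small gap to the next mouse. In Pla2g5 the other HFoleic mice, except mouse 1 at 5.60, form a second cluster between 7.81 and 8.09.

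The HFepa group was not uniform. For 9 of the 14 genes called in HFoleic vs. Ref (Tbxas1, Alox5ap, Hpgds, Ltb4r1, Cyp4f18, Cysltr1, Ptgir, Hpgd and Cbr1) the HFepa mice farthest in the direction of the HFoleic group were mice 1 and 6. For 12 of the 14 the HFepa median lay between the Ref and HFoleic medians, the exceptions being Cysltr2 and Ptgir. On the other side, HFoleic mouse 1 was the HFoleic mouse nearest to the Ref group for 8 of the 14. The 14 genes were picked for a difference of HFoleic and Ref mice, which by itself favours a median in between. The same shares among all called genes were not computed, so these counts describe the mice and are not particular to these genes. Without HFepa mouse 1, 6 of the 36 genes were called in HFepa vs. HFoleic, all lower in the HFepa group: Tbxas1 (log2 fold change -1.25, adjusted p = 0.0275), Hpgds (-1.05, adjusted p = 0.0298), Alox5ap (-0.97, adjusted p = 0.0399), Ptgir (-0.55, adjusted p = 0.0402), Cysltr1 (-0.50, adjusted p = 0.0331) and Cysltr2 (-0.25, adjusted p = 0.0404). The share among all genes was then 7.72%. For genes in which mouse 1 lay far toward the HFoleic group, leaving it out widens the difference by itself. Without HFepa mouse 6 none of the 36 was called, and the share among all genes was 0.0039%. Without HFoleic mouse 1 none of the 36 was called, while the share among all genes rose from 0 to 4.36%.

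Macrophage markers moved with part of the genes called in HFoleic vs. Ref. Of 7 macrophage genes, 5 rose in HFoleic vs. Ref (Cd68, Adgre1, Lyz2, Csf1r and Mrc1, by log2 2.41, 2.27, 1.60, 1.02 and 0.76) and Itgam (0.30) and Cd14 (-0.29) were not called, and none was called in the other comparisons. The mean level of the list was between 12.20 and 12.64 in the Ref group and between 13.05 and 14.07 in the HFoleic group. In the HFepa group it was at 14.13 and 13.80 in mice 1 and 6 and between 12.16 and 12.95 in the other 6 mice. For Pla2g4a, Ptger3, Ltc4s, Lta4h and Cysltr2, the pair of HFepa mice farthest toward the HFoleic group was not mice 1 and 6. All 6 genes of a list for lipid-associated macrophages (Trem2, Gpnmb, Cd9, Itgax, Spp1 and Mmp12) rose in HFoleic vs. Ref, with levels of the list between 8.09 and 9.63 in Ref, between 11.37 and 13.19 in HFoleic, and up to 13.74 in HFepa mouse 1. The part of macrophage number in the changes of the eicosanoid genes was not tested.

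**Figure D4:**
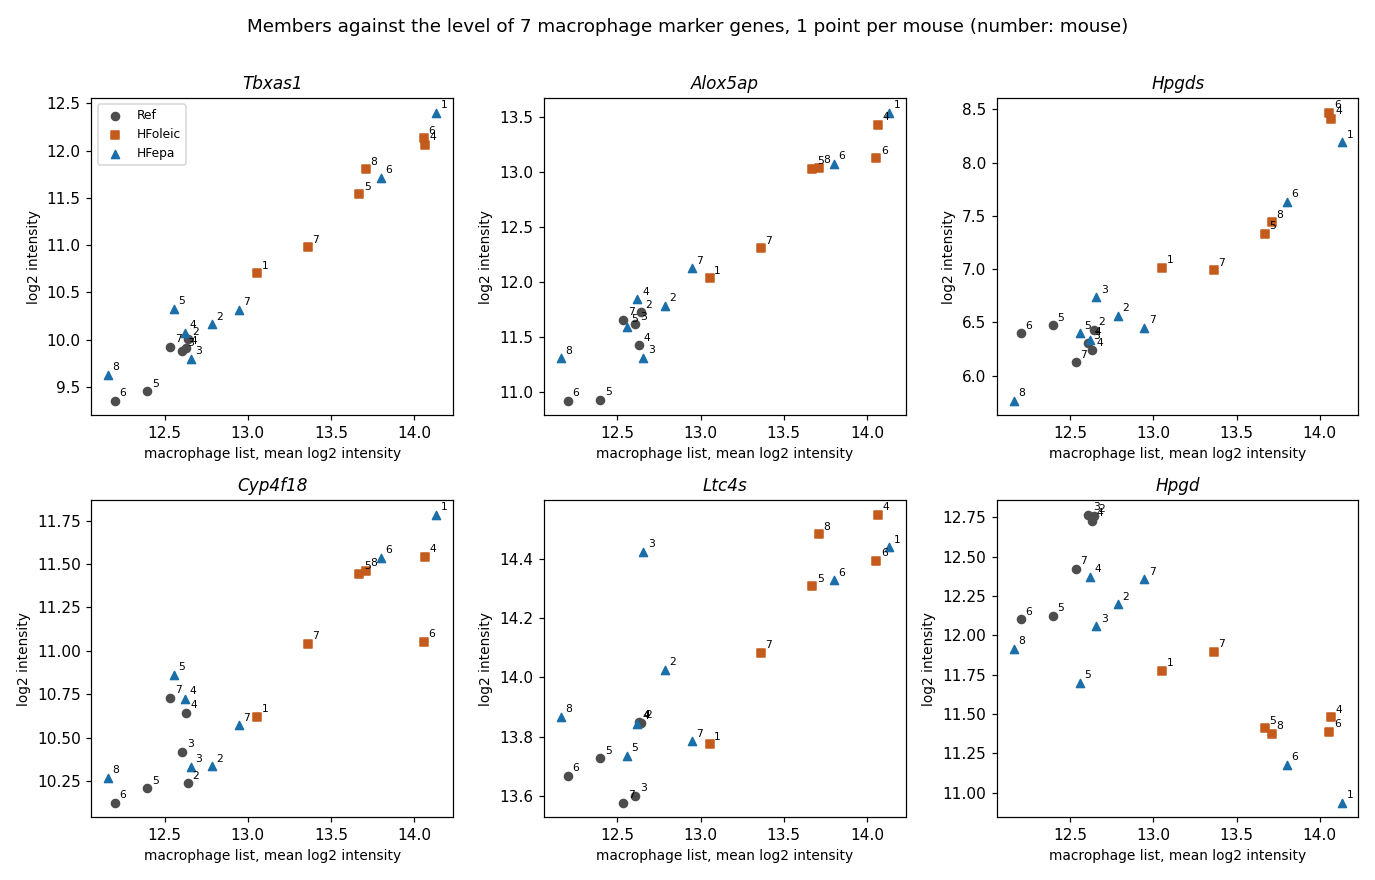
Log2 intensity of 6 called genes in each mouse against the mean log2 intensity of 7 macrophage markers, with the mouse number beside each point. For Tbxas1, Alox5ap and Hpgds the mice with a list level above 13, which are the 6 HFoleic mice and HFepa mice 1 and 6, hold the 8 highest values or all but 1 of them. Hpgd runs the other way, with its 6 lowest values among the same mice. All points come from the same arrays, so the plots are descriptions without a test.

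Other marker lists moved in part. Of 4 eosinophil markers tested, Ear1 and Ccr3 rose in HFoleic vs. Ref (by log2 2.84 and 0.53), and Prg2 and Il5ra were not called. Of 7 mast cell markers tested, none rose and Kit fell by 0.43, with the list between 8.20 and 9.42 in the Ref group and between 8.16 and 8.64 in the HFoleic group. Of 5 platelet markers, none rose, and Gp9 and Ppbp were lower, with log2 values of -0.98 and -0.99. The mean of the 7 adipocyte markers differed by less than their range within groups, with Lep higher (1.13) and Lipe lower (-1.19) in the HFoleic group. Of 5 neutrophil markers tested, S100a8 rose by 2.46, with ranges that overlapped, Csf3r fell by 0.24 and Ly6g, S100a9 and Retnlg were not called. Of 3 dendritic cell markers tested, Flt3 and Clec9a rose by 1.00 and 0.78, both with no HFoleic mouse in the Ref range, and Zbtb46 fell by 0.65. The mean of these 3 was between 7.80 and 8.34 in the Ref group, between 8.32 and 8.48 in the HFoleic group and between 7.91 and 8.56 in the HFepa group. Of 6 fibroblast and progenitor markers, Col1a1 rose by 1.49 and Cd34 by 0.42, and the list was between 11.71 and 12.26 in the Ref group and between 12.23 and 12.70 in the HFoleic group. No marker of T cells, B cells, mesothelium, endothelium, smooth muscle or liver was called in this comparison by limma, and 1 B cell and 1 mesothelial marker, both lower, had an unadjusted p under 0.05. The part of these cells in the changes of the eicosanoid genes was not tested.

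The 3 slides that held the arrays carried all 3 groups, and the differences were computed within each. For all 14 called genes the difference of HFoleic and Ref means had the same sign on all 3 slides. The genes were called on these same arrays, with 1 to 3 arrays of a group on a slide, so this agreement is a description and no separate support. It ran from 1.60 to 2.38 for Tbxas1, from 1.07 to 2.14 for Alox5ap, from 0.84 to 2.11 for Hpgds, from 0.57 to 1.06 for Cysltr1 and from -1.25 to -0.76 for Hpgd. In HFepa vs. HFoleic it ran from -1.41 to -0.76 for Tbxas1 and from -0.73 to -0.39 for Cysltr1. With the slide as a block in the model, Cysltr1 was called in HFepa vs. HFoleic (log2 fold change -0.48, adjusted p = 0.0393), where the share among all genes was 3.16%.

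Around the 36 genes, 60 others of the pathway were listed, and 48 of them were tested. In HFoleic vs. Ref 11 rose, 6 fell and 31 were not called. Among all genes the share called in that comparison was 31.8%, with 15.2% higher and 16.7% lower. The largest rises were those of Dpep2, a dipeptidase that acts on leukotriene D4, from a median of 8.21 to 10.93 (log2 fold change 2.55, adjusted p = 0.00147), and of Cyp2c44, an epoxygenase of arachidonic acid, from 6.91 to 9.60 (2.52, adjusted p = 0.000404). Neither had an HFoleic mouse within the Ref range. Anxa1, a protein that restrains phospholipase A2 and leukocytes, rose by 1.54, Ptgr1, which inactivates leukotriene B4, by 1.47, Akr1b8, an aldo-keto reductase, by 1.32, Pla2g7, the hydrolase of platelet-activating factor, by 1.05, and Ephx1, an epoxide hydrolase, by 1.00. Akr1b3, Pla2g15 and Cyp4f39 rose by 0.41 to 0.54. Dpep3, another dipeptidase, was not well above background in any Ref mouse. Its level in the HFoleic group was estimated as at least 1.33-fold higher (adjusted p = 0.0175), a bound that leaves out the spread between mice. The 6 that fell were Pla2g2d, Pla2g4b, Mgst3, Pla2g12a, Aloxe3 and Mgst2, with values from -0.66 to -0.33.

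In HFepa vs. Ref 3 of the 48 genes were called, where the share among all genes was 2.46%. Cyp2c44 was higher (log2 fold change 1.63, adjusted p = 0.028) and so was Anxa1 (0.96, adjusted p = 0.0386). Pla2g4b, a cytosolic phospholipase, was lower (-0.31, adjusted p = 0.0446), and all 8 HFepa mice, at 12.10 to 12.37, were below all Ref mice, at 12.38 to 12.75. In HFoleic vs. Ref the values of these 3 genes were 2.52, 1.54 and -0.55, against the same Ref arrays. No gene of the 48 was called in HFepa vs. HFoleic, where 12 had an unadjusted p under 0.05 by limma, 3 higher and 9 lower in the HFepa group. Of all 25619 genes, 5331 had such a p there, 2766 higher and 2565 lower.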

How the data were processed

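The data are 20 Agilent SurePrint G3 mouse arrays of 1 colour, 1 per mouse, with RNA of visceral adipose tissue. The authors extracted the spot intensity values from the scans with Agilent Feature Extraction 10.10.1.1, and as deposited the median intensity is on a linear scale, without normalization or background correction. The processed intensity in the same deposited files had its background subtracted by that software. The authors also deposited log2 values of 38168 probes, filtered and quantile normalized by them, used here as an alternative, and their filter is not given in the sources used here. These values correlated at 0.99998 or more with the ones computed here from the same array.

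Spots with a non-uniformity or outlier mark were set missing. Probes well above background on at least 6 arrays were kept, which left 39391. The log2 median intensities were quantile normalized, and spots of a probe averaged, in R 4.3.3. All 20 arrays entered 1 limma 3.58.1 fit (lmFit and eBayes) with a mean for each group, and p was corrected over the whole of the tested probes after Benjamini and Hochberg. A gene is its tested probe with the highest mean. Positions are those of the files (mm9). Groups follow the labels, every member is accounted for, and values per mouse are given for called genes and those with the largest change in a branch. The members, marker lists and motifs were chosen with earlier results of these data known. The fit was also tested on simulated data with 200 probes shifted by log2 1. It called 89% of them in HFoleic vs. Ref, 95.5% in HFepa vs. HFoleic and 91% in HFepa vs. Ref. These shares describe the simulated probes only, and not how often a change of that size in the genes described here would be called. On the real arrays Tbxas1 at -0.98 (standard error 0.36) and Hpgds at -0.85 (standard error 0.31) were not called in HFepa vs. HFoleic (adjusted p = 0.149 for both). The alternatives were other signals, scalings, filters, blocks, weights, variance models and probe rules, and each array left out in turn. Precision is limited by the number of mice. Plots were drawn with matplotlib 3.10.9.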

Additional observations from a re-analysis of the deposited data

Results flagged for a closer look

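In 9 of the 108 combinations of gene and group, a single mouse stood apart from the rest of its group, as judged by its gap to the next mouse over the range of the group (Dixon's criterion), which chance gives in about 1 of 20 groups. HFoleic mouse 5 was far above the other HFoleic mice for Ptgds (11.6, next mouse 6.19), Ggt1 (8.40, next 5.36) and Alox12 (9.11, next 7.66), in log2 intensity, and its testis list was at 9.06, the highest of all mice. HFoleic mouse 1 was below its group for Pla2g4a (8.59, next 9.34), and its macrophage list, at 13.05, was the lowest of that group. Ptgs2 stood apart in HFoleic mouse 7 (6.87, next 5.78) and HFepa mouse 3 (7.51, next 6.22). HFepa mouse 2, with the epididymis list at 8.36, was highest for Ptger1 (6.41, next 5.69) and Ptges2 (10.7, next 10.4). Alox15 was highest in HFepa mouse 1 (5.78, next 5.52). The part of tissue composition in these values was not tested.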

How the results depend on the processing

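No called gene changed its sign under any alternative. In HFoleic vs. Ref, 14 of the 36 genes were called (11 higher, 3 lower), and 11 to 15 were called (9 to 12 higher, 2 to 4 lower) with each array left out in turn. Without the 5 arrays with high testis or epididymis lists, a setting chosen after seeing the data, 6 were called, 5 higher and 1 lower, and the drop in the number of mice was part of that setting. In HFepa vs. Ref the count was 0 under all settings. In HFepa vs. HFoleic it was 0, but 1 lower with the slide as a block (Cysltr1) and 6 lower with array weights (Tbxas1, Hpgds, Alox5ap, Ptgir, Cysltr1 and Cysltr2), where 12% of all genes were called, and 0 to 6 with each array left out, 6 without HFepa mouse 1. The cause was not tested. Over all genes, the number called in HFepa vs. Ref was 630, between 100 and 1795 with 1 array left out, and 0 without the 5 arrays. Genes near the background, such as Cysltr2 and Ptgdr2, are limited by signal.

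The labels give the groups shared replicate numbers. With the number as a replicate block, 9 of the 36 genes were called in HFoleic vs. Ref, 7 higher and 2 lower, with 21.1% of all genes called against 31.8%. Cyp4f18, Ltb4r1, Ptger3, Ptgir and Cbr1 lost their call. The block changed no member's call in the other comparisons, and left 0.0664% of all genes in HFepa vs. Ref. The numbers do not mark shared animals, and the deviations of 16 pairs with the same number correlated between -0.59 and 0.56, with 5 above 0.1. The main fit treats the mice as unpaired. The authors matched the mice of the 2 high-fat groups for body weight, and these correlations cannot show whether the numbers follow that matching.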
